A study of Mus musculus with 42 samples.

Results

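Mouse colonic organoids exposed to interleukin-17A (IL-17A) for 12 h were compared with untreated organoids labelled with the same time. The 3 IL-17A libraries (numbered 1, 3 and 4) and the 3 control libraries (numbered 1, 2 and 4) were chosen by their labels and make up 6 of the 42 samples of the series, which also holds goblet and stromal cells sorted from colons with BMP pathway knockouts and organoids given IL-1. All 6 libraries came from organoids of WT genotype grown from colon crypts in ENR medium, that is with EGF, Noggin and R-spondin1, with Wnt3a-conditioned medium and CHIR added. The treated cultures had 10 nM IL-17a in this medium and the controls had no treatment; the treatment note of the labels also lists tamoxifen injection of mice without saying for which samples. Such organoids are epithelium alone, without the stromal, immune and nerve cells of the gut wall, and CHIR with Wnt3a keeps them proliferating. The labels do not say whether the libraries of a group came from separate cultures or mice, so p-values measure the spread between these samples, which may be technical.

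IL-17A is a cytokine made by T helper 17 cells, gamma-delta T cells and innate lymphoid cells, and it acts on epithelium through a receptor of IL-17RA and IL-17RC. The adaptor Act1, encoded by Traf3ip2, and TRAF6 carry the signal to NF-κB, to C/EBP and AP-1 factors and to proteins that stabilise short-lived mRNAs. In the gut epithelium the pathway is known for inducing chemokines, antimicrobial proteins, epithelial oxidases and the immunoglobulin transporter.

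The recovered depth was 16809108 to 17665812 reads per library (median 17210815). Of 14632 genes in the table, 12977 had a mean normalized count of at least 10 and were tested. All 15 colon epithelium markers were present, with summed normalized counts of 213516 to 266541 in the controls and 236542 to 287183 with IL-17A. Only 3 of 13 fibroblast and smooth muscle markers had a row (summed 159 to 396 in controls and 122 to 408 with IL-17A), and so did 5 of 12 endothelial and neuronal markers (149 to 191 and 139 to 167). Of 19 leukocyte markers 7 had a row, and their sum was 2945 to 3666 in controls and 3959 to 4192 with IL-17A; Ly6g alone had a mean of 2945. Cd3e, Csf1r, Lyz2, S100a8 and S100a9 had no row, and the part of the Ly6g level in the results was not tested.

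The libraries were not of one sex. Control libraries 1 and 2 and IL-17A library 1 expressed Y-linked genes and are called XY here, while control library 4 and IL-17A libraries 3 and 4 expressed Xist and are called XX. The same split separated the libraries on the first principal component, which held 60.3% of the variance. Ceacam2, an autosomal gene, followed it as well, with normalized counts of 11344, 11466 and 13730 in the XY libraries and of at most 26.7 in the XX libraries, and it was at 68.0 in an XY library at 72 h. Sex therefore cannot be told apart from other differences between the lines, and the block is called sex only for its marker genes. Each sex therefore had both groups, but with 2 controls against 1 treated library in XY and 1 against 2 in XX. The comparison was fitted without a covariate, as designed, and again with sex as a block, an addition made after the libraries had been seen. "Rose" and "fell" are used only of genes whose limma p, adjusted by the Benjamini-Hochberg method, was under 0.05. A gene is "called" where it also moved by 1 or more on the log2 scale, up or down.

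IL-17A raised the oxidase Duox2, the NF-κB cofactor Nfkbiz, the RNase Zc3h12a, the cornified envelope gene Sprr2h and the adhesion molecule family member Ceacam10, and without a covariate these 5 of 12977 genes (0.0385%) were the ones called. No gene fell in that fit, where 667 genes had an unadjusted p under 0.05, 140 of them past the same fold change (1.08%). With the sex block, 79 genes rose (0.609% of those tested) and 1 fell, Gsdmc2 (0.00771%), and 36 of the 80 were called, 35 of them higher and 1 lower. For all 80 the groups did not overlap within either sex, against 18.4% of all genes for higher and 18.9% for lower values. For 69 of the 80 the groups did not overlap at all, against 5.91% and 5.01%. The 80 were selected by p-values from these same libraries, so this separation is largely built in and is no separate evidence. The number called with the sex block rests on single libraries: it was 46 without control library 1, 127 without control library 2, 6 without control library 4, and 5, 9 and 8 without IL-17A libraries 1, 3 and 4. IL-17A libraries 3 and 4 were the most alike pair (chi-square of 3.32 per gene and degree of freedom against 14.51 to 83.35 for the other pairs), and averaging them left 7 genes called with the block, namely Ccl20, Duox2, Duoxa2, Mov10, Nfkbiz, Plat and Zc3h12a, and 2 without it.

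Duox2 encodes the dual oxidase that releases hydrogen peroxide at the apical face of the gut epithelium, and Duoxa2 encodes the factor that brings it to the membrane. Duox2 lies at chr2:122279247-122298449 on the minus strand (GRCm38), and Duoxa2 lies beside it at chr2:122298900-122302885 on the plus strand. Duox2 had normalized counts of 966, 979 and 941 in control libraries 1, 2 and 4, and of 10388, 10236 and 9849 in IL-17A libraries 1, 3 and 4. The libraries of each group were close to one another and the groups lay far apart. The log2 fold change was 3.40 ± 0.08 (SE, n = 3 per group, adjusted p = 2.8e-05 in limma), and the fold changes within XY and XX organoids were 3.42 and 3.41. Duoxa2 had normalized counts of 276, 186 and 74 in the controls and of 2976, 1526 and 1249 with IL-17A. Its groups did not overlap, but its level was higher in XY than in XX organoids of either group. Without a covariate its log2 fold change was 3.50 ± 0.53 (adjusted p = 0.16), and with the sex block it was 3.95 ± 0.19 (adjusted p = 0.0006), so that Duoxa2 rose in the blocked fit. Some exon bases of Duoxa2 are shared with Duoxa1 on the other strand, and the strand setting of the counting is not given in the sources used here.

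Nfkbiz encodes IκBζ, a nuclear cofactor of NF-κB that IL-17A target genes are known to need, and Zc3h12a encodes Regnase-1, an endonuclease that degrades inflammatory mRNAs. Nfkbiz (chr16:55811375-55838899, minus strand) had normalized counts of 435, 517 and 430 in the controls and of 2386, 2363 and 2241 with IL-17A. Zc3h12a (chr4:125118423-125127840, minus strand) had 425, 500 and 328 in the controls and 3233, 2263 and 2236 with IL-17A. Both genes were higher in every treated library than in any control. On the log2 scale Nfkbiz rose by 2.34 ± 0.11 (adjusted p = 0.0013), and Zc3h12a by 2.62 ± 0.21 (adjusted p = 0.026).

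Sprr2h, of the small proline-rich proteins of squamous and stressed epithelium, had normalized counts of 52.1, 25.5 and 52.8 in the controls and of 390, 582 and 464 with IL-17A. Ceacam10, of the carcinoembryonic antigen family, had 446, 343 and 377 in the controls and 1760, 1215 and 1367 with IL-17A. The groups did not overlap for either gene. Sprr2h rose by 3.48 ± 0.32 (adjusted p = 0.04) and Ceacam10 rose by 1.89 ± 0.17 (adjusted p = 0.04). Both families hold close copies between which reads can be split, and the handling of such reads beyond unique mapping is not given in the sources used here. When each library was left out in turn without a covariate, Duox2 and Nfkbiz passed every time, Zc3h12a passed in 2 of 6 fits, Sprr2h in 1 of 6 and Ceacam10 in 0 of 6.

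**Figure D1:**
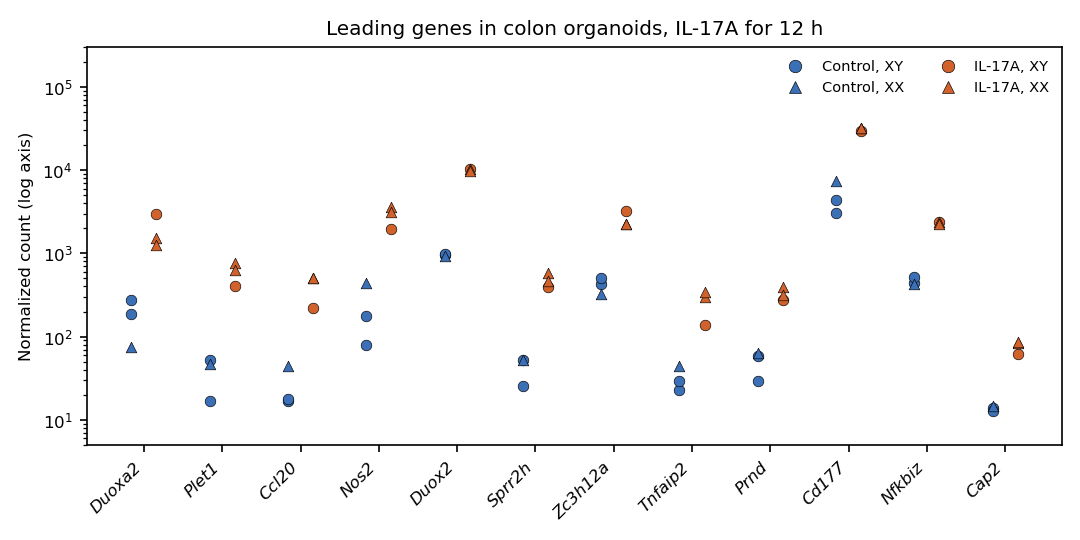
Normalized counts (log axis) of leading genes in each of the 6 libraries, controls beside IL-17A, with XY and XX organoids marked. Duox2 sat between 941 and 979 in the controls and between 9849 and 10388 with IL-17A, while Ccl20 and Nos2 also differed between the sexes within each group.

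Among secreted signals, the chemokines Ccl20 and Ccl28 rose. Ccl20, the ligand of CCR6 on T helper 17 cells, B cells and dendritic cells, had normalized counts of 16.7, 17.6 and 44.4 in the controls and of 221, 512 and 502 with IL-17A. Within either group the XX libraries were the higher ones, and the groups did not overlap. The log2 fold change was 3.97 ± 0.48 without a covariate (adjusted p = 0.078) and 3.55 ± 0.15 with the sex block (adjusted p = 0.00032). Ccl28, a mucosal chemokine for IgA plasma cells, had 2053, 1309 and 2333 in the controls and 3943, 4782 and 5203 with IL-17A, a blocked log2 fold change of 1.18 (adjusted p = 0.042). These were 2 of 7 CC and other chemokine ligands tested, a list with a median blocked log2 fold change of 0.13, beside -0.01 for all genes.

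Of the CXC ligands, a family that includes neutrophil and lymphocyte attractants, 0 of 6 rose and 0 fell, and the median blocked log2 fold change was 1.35. Cxcl5 had normalized counts of 68.9, 17.6 and 206 in the controls and of 271, 749 and 784 with IL-17A (blocked log2 fold change 2.40 ± 0.50, adjusted p = 0.11). Cxcl1 had 26.6, 9.8 and 20.4 in the controls and 55.2, 78.1 and 70.7 with IL-17A (1.76 ± 0.39, adjusted p = 0.13). Cxcl2 had 1.97, 0.98 and 1.85 in the controls and 9.37, 29.7 and 21.3 with IL-17A (2.65 ± 0.53, adjusted p = 0.11). For these 3 genes the treated libraries were all above the controls, as they were for 5.91% of all genes tested. Cxcl10, an interferon-linked chemokine, lay at 25.6, 10.8 and 54.6 in the controls and at 16.7, 21.7 and 17.4 with IL-17A, with overlapping groups. Of the cytokines and colony-stimulating factors 0 of 9 rose (median 0.48). Il33, an alarmin of barrier cells, had the largest value of that list, 18.7, 8.82 and 40.7 in the controls against 47.9, 118 and 110 with IL-17A (blocked log2 fold change 1.63 ± 0.33, adjusted p = 0.11).

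The receptor side held no gene that passed the test. Of 21 IL-17 receptor and adaptor genes tested 0 rose and 0 fell, their blocked log2 fold changes ran from -0.17 to 0.60 and the median was 0.01. Il17ra had normalized counts of 403, 397 and 422 in the controls and of 364, 425 and 428 with IL-17A. Il17rc had 1380, 987 and 1256 in the controls and 1472, 1292 and 1229 with IL-17A. Traf3ip2 had 505, 403 and 377 in the controls and 501, 428 and 408 with IL-17A. The groups of all 3 genes overlapped, and both receptor chains and the adaptor were therefore detected in untreated organoids.

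Of 23 NF-κB subunits and feedback inhibitors, 2 rose without a covariate (Nfkbiz and Zc3h12a) and 4 with the sex block, which added Nfkbia and Birc3. Nfkbia, the inhibitor IκBα that NF-κB itself induces, had normalized counts of 1071, 1051 and 1142 in the controls and of 1771, 1730 and 1660 with IL-17A, a tight but smaller difference (blocked log2 fold change 0.65 ± 0.07, adjusted p = 0.011). Birc3, the ubiquitin ligase cIAP2, had 1026, 752 and 1053 in the controls and 1575, 1845 and 1931 with IL-17A (0.84 ± 0.12, adjusted p = 0.043). The groups did not overlap for either gene. The median of the list was 0.10 with the block, and Relb, a subunit of the non-canonical arm, lay at 968, 979 and 851 in the controls and 773, 688 and 644 with IL-17A (-0.34 ± 0.07, adjusted p = 0.10).

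Of 24 C/EBP, AP-1 and mRNA decay regulators 2 rose with the block (list median 0.06). Cebpd, a C/EBP factor induced by IL-17A in many cells, had normalized counts of 230, 174 and 180 in the controls and of 680, 604 and 501 with IL-17A (blocked log2 fold change 1.68 ± 0.15, adjusted p = 0.0063). Ier3, an immediate early gene, had 750, 712 and 824 in the controls and 1296, 1250 and 1139 with IL-17A (0.68 ± 0.09, adjusted p = 0.032). Both were higher in every treated library than in any control. Of 25 TNF family, adhesion and cell death genes 2 rose, Tnfaip2, at 22.6, 29.4 and 44.4 in the controls and 137, 301 and 347 with IL-17A (2.60 ± 0.20, adjusted p = 0.0051), and the TNF receptor Tnfrsf1b (0.66 ± 0.09, adjusted p = 0.033), and the list median was 0.17. Of 20 JAK-STAT3 genes 1 rose, Il22ra1, a chain of the IL-22 receptor, with 358, 327 and 313 in the controls and 701, 779 and 679 with IL-17A (1.12 ± 0.10, adjusted p = 0.0066; list median 0.07). Of 29 interferon-stimulated genes 0 rose and 0 fell (median 0.21).

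Promoter sequence is shown for 4 genes that rose with the sex block, had a match to the general κB consensus and belong to the chemokine, oxidase, NF-κB feedback or immediate early genes described here. Each is the 250 bases before the RefSeq start of the gene (GRCm38.p6), written 5′ to 3′ on the strand of the gene, with the κB match in capitals. They lie at chr1:83116516-83116765 (Ccl20, plus strand), chrX:134111855-134112104 (Nox1, minus), chr12:55492648-55492897 (Nfkbia, minus) and chr17:35821463-35821712 (Ier3, plus). The Nox1 window lies inside the GENCODE span of that gene (chrX:134086421-134221956), so its motif position holds for the RefSeq start only.
Ccl20: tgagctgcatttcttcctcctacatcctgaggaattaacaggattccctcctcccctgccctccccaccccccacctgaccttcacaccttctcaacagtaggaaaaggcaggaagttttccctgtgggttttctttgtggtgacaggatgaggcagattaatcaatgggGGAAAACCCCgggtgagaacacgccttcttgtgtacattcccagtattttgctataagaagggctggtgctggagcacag
Nox1: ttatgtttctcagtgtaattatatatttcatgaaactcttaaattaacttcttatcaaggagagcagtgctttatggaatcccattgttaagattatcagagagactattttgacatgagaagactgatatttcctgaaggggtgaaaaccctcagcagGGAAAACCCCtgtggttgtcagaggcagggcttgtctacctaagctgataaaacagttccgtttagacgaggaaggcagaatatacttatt
Nfkbia: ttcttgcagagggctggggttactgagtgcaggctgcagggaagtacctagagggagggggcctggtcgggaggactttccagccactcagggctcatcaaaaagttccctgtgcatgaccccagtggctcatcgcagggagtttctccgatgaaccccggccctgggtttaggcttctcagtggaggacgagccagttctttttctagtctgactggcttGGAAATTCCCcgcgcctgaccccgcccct
Ier3: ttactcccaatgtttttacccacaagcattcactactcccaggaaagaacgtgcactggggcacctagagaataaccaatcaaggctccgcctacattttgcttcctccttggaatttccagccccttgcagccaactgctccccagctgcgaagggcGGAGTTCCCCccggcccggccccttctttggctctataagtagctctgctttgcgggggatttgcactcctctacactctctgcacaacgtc
In the Ccl20 promoter the match ran from base -80 to -71 before the start, in Nox1 from -91 to -82, in Nfkbia from -29 to -20 and in Ier3 from -92 to -83. Prnd, Rab15, Sqstm1 and Ak4 were the other genes with a match. Of the 79 genes that rose with the block, 61 had a promoter in the RefSeq table, and the κB consensus was found on either strand in 8 of them (13.1%), against 539 of 10105 tested genes (5.33%) and 4.46% of all 27025 promoters. The AP-1 motif TGANTCA was found in 10 of the 61 (16.4%), against 5.82% of tested genes and 7.82% of all promoters, and these included Duoxa2, Sprr2h, Plet1 and Il22ra1. The C/EBP motif TTGCGNAA was found in 2 of the 61 (3.28%), against 1.23% of tested genes and 0.762% of all promoters. Of the 5 genes called without a covariate, 4 had a promoter, and the κB consensus was found in 0 of them. Of the 35 genes called higher with the block, 29 had a promoter, and it was found in 3 (10.3%). A match describes the letters in this window and is not a measured binding site.

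**Figure D2:**
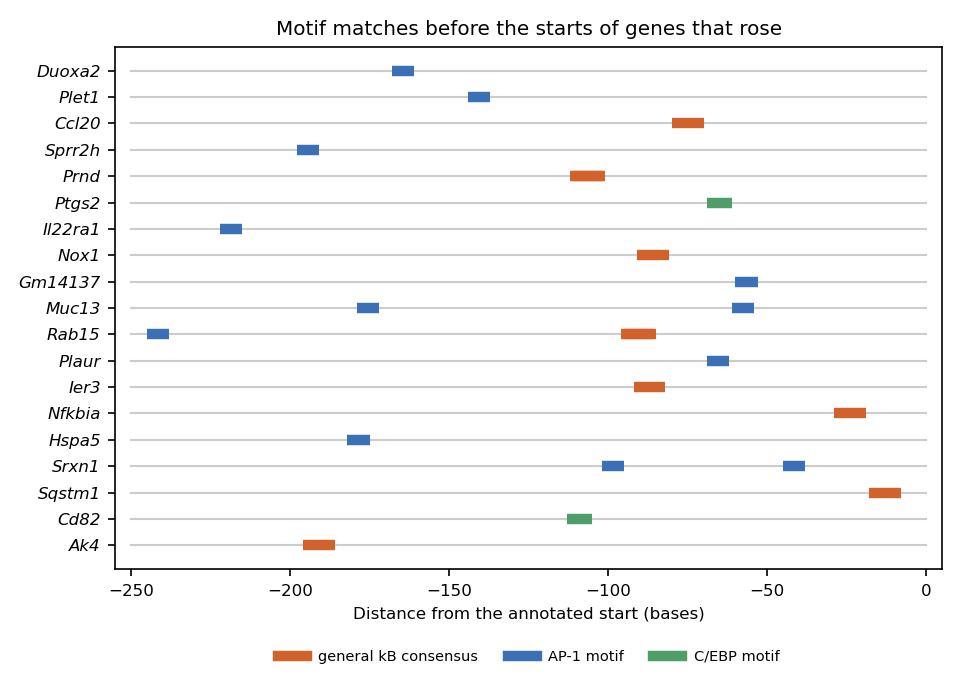
Positions of κB consensus, AP-1 and C/EBP motif matches in the 250 bases before the start of the genes that rose with the sex block and held a match, as distance from the start in bases. The κB matches of Ccl20, Nox1 and Ier3 lay between 71 and 92 bases before the start and that of Nfkbia between 20 and 29.

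Of the antimicrobial and oxidase genes 7 of 25 tested rose with the sex block and 1, Duox2, without a covariate, with a median blocked log2 fold change of 0.72. Beside Duox2 and Duoxa2 these were Nos2, Nox1, Nod2, Pigr and Sprr2a3. Nos2, the inducible nitric oxide synthase, had normalized counts of 175, 78.4 and 442 in the controls and of 1975, 3627 and 3164 with IL-17A (blocked log2 fold change 3.50 ± 0.36, adjusted p = 0.012). Nox1, the colonic superoxide-forming NADPH oxidase, had 3241, 2835 and 5657 in the controls and 6308, 12436 and 12612 with IL-17A (1.10 ± 0.07, adjusted p = 0.0018). For both genes the XX libraries were the higher ones in each group, and the treated libraries all exceeded the controls. Nox1 shares exon bases with Cstf2 on the other strand.

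Nod2, the sensor of bacterial muramyl dipeptide, had normalized counts of 31.5, 46.1 and 40.7 in the controls and of 110, 114 and 134 with IL-17A (1.54 ± 0.22, adjusted p = 0.043). Pigr, which carries IgA across the epithelium, was among the most abundant genes, with 78620, 65266 and 68071 in the controls and 132554, 120431 and 125115 with IL-17A (0.87 ± 0.11, adjusted p = 0.027). Groups did not overlap for these 2 genes. Sprr2a3 had 10486, 10298 and 7111 in the controls and 13687, 10032 and 10188 with IL-17A, so that its groups overlapped and only the comparison within each sex was apart (0.45 ± 0.06, adjusted p = 0.026). Lcn2, Reg3b and Reg3g, well known IL-17 targets, had no row in this table and are not analysed here. Of 6 complement and acute phase genes 0 rose (median 0.37), although Lbp, the lipopolysaccharide-binding protein, went from 2.95, 0 and 2.78 in the controls to 30.2, 44.5 and 45.5 with IL-17A (3.79 ± 0.61, adjusted p = 0.063).

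**Figure D3:**
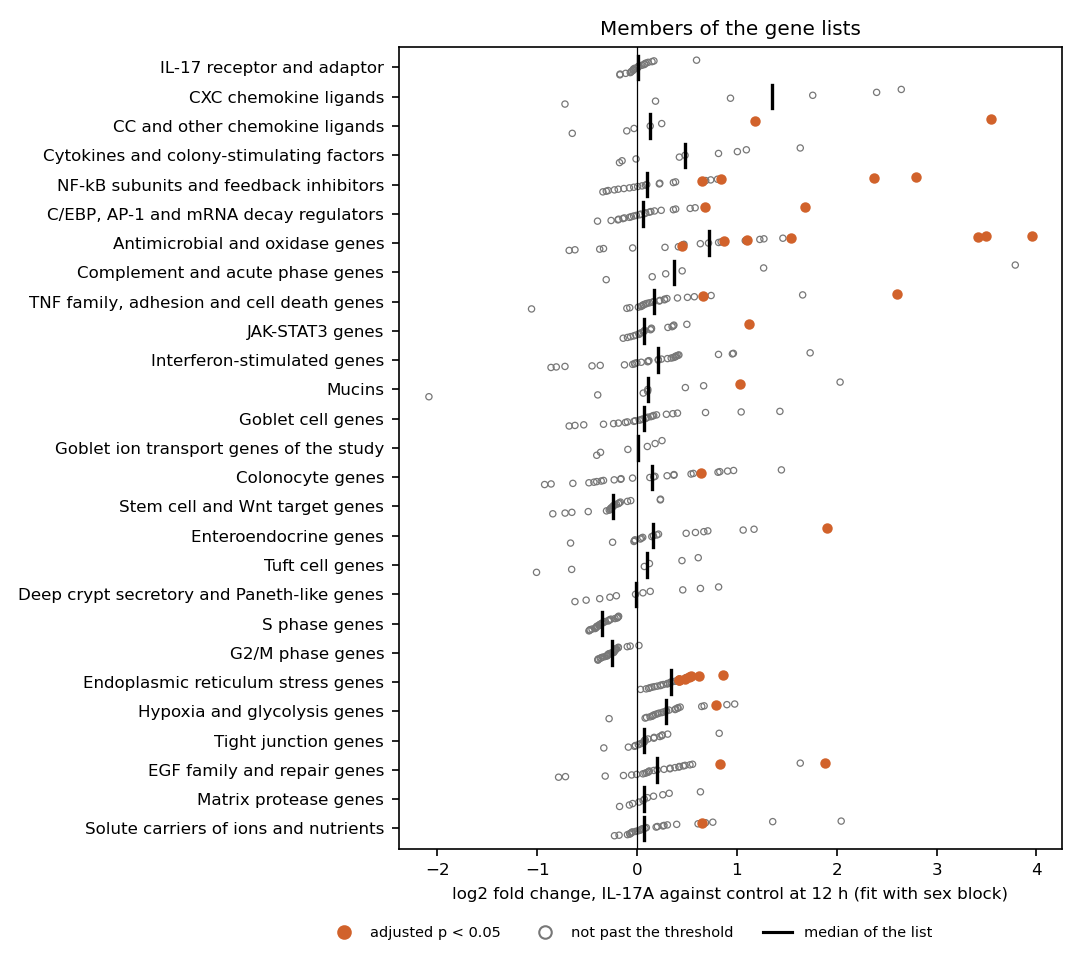
Log2 fold change (IL-17A against control at 12 h, sex block) of every tested member of each gene list, one row per list, with members that passed the test marked and the list median drawn. The endoplasmic reticulum stress genes all lay above 0 and the S phase genes all below it, while the largest values were in the antimicrobial and oxidase list.

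Plet1, Prnd, Cd177 and Cap2, which are in none of the lists, were among the 12 largest rises with the sex block. Plet1, a surface protein of epithelial progenitors, had normalized counts of 16.7, 52.9 and 46.3 in the controls and of 404, 756 and 623 with IL-17A (blocked log2 fold change 3.79 ± 0.40, adjusted p = 0.015). Cd177, a surface glycoprotein best known from neutrophils, was abundant here, with 4373, 3065 and 7356 in the controls and 29395, 31723 and 32140 with IL-17A (2.56 ± 0.22, adjusted p = 0.006). Prnd, which encodes the prion-like protein doppel, had 59, 29.4 and 63.9 in the controls and 275, 398 and 320 with IL-17A (2.58 ± 0.28, adjusted p = 0.016). All treated libraries were above all controls for the 3 genes. Plet1 shares exon bases with Plet1os on the other strand and Prnd with Prn on the same strand. Cap2, an actin-binding protein, had 13.8, 12.7 and 14.8 in the controls and 61.4, 83 and 85.3 with IL-17A (2.28 ± 0.24, adjusted p = 0.015).

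Smaller rises outside the lists included a prostaglandin synthase, antiviral and ubiquitin ligase genes and receptors. Ptgs2, the inducible cyclooxygenase, had normalized counts of 90.5, 72.6 and 501 in the controls and of 341, 1732 and 1610 with IL-17A, so that control library 4 lay above IL-17A library 1 and the groups were apart only within each sex (1.90 ± 0.13, adjusted p = 0.0028). Mov10, an antiviral RNA helicase, had 374, 427 and 226 in the controls and 1198, 764 and 673 with IL-17A (1.62 ± 0.10, adjusted p = 0.0017). Trim40, a ubiquitin ligase of the gut epithelium, had 205, 234 and 160 in the controls and 497, 435 and 362 with IL-17A (1.24 ± 0.12, adjusted p = 0.011). Mov10 and Trim40 were higher in all treated libraries than in any control. Apobec1, the editor of apolipoprotein B mRNA, had 245, 250 and 229 in the controls and 486, 533 and 500 with IL-17A (1.07 ± 0.10, adjusted p = 0.007). Cd14, the lipopolysaccharide co-receptor, had 818, 656 and 1100 in the controls and 1485, 1756 and 1650 with IL-17A (0.82 ± 0.12, adjusted p = 0.049). The groups were apart for both. Vdr, the vitamin D receptor, had 6383, 6969 and 4662 in the controls and 9346, 7118 and 6891 with IL-17A, overlapping across the sexes but not within them (0.54 ± 0.06, adjusted p = 0.02).

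Gsdmc2, a gasdermin of the colon epithelium, was the gene that fell with the sex block. It had normalized counts of 281, 283 and 226 in the controls and of 103, 66.2 and 81.4 with IL-17A, with no overlap. The log2 fold change was -1.66 ± 0.21 without a covariate (adjusted p = 0.098) and -1.53 ± 0.15 with the block (adjusted p = 0.0093). Gsdmc2 has close copies among the Gsdmc genes, between which reads can be split.

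**Figure D4:**
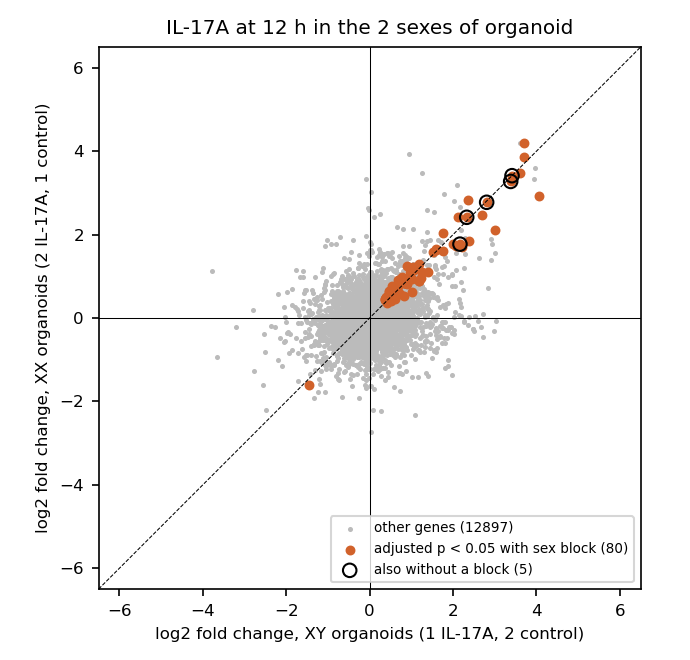
Log2 fold change of IL-17A against control within XX organoids (vertical axis) and within XY organoids (horizontal axis), one point per tested gene, with the genes that passed the test in the sex-block fit marked. Duox2 lay at 3.42 in XY and 3.41 in XX, and the genes that rose, selected on these same libraries, lay above 0 on both axes.

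The response was also set against the sex of the organoids. No gene passed an interaction of sex and treatment in limma (0 of 12977 at an adjusted p under 0.05, smallest adjusted p 0.99; 238 genes, 1.83%, at an unadjusted p under 0.05). With 1 control library in XX and 1 treated library in XY, this test had few samples to work with, and it does not show that the responses were equal.

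Few secretory or absorptive genes passed the test. Of 9 mucins 1 rose, the membrane mucin Muc13, with normalized counts of 15604, 11395 and 14812 in the controls and of 30425, 26780 and 27774 with IL-17A (1.04 ± 0.14, adjusted p = 0.032; list median 0.11). Muc13 shares exon bases with Gm15657 on the other strand. Muc2, the gel-forming mucin of goblet cells, had 36769, 51206 and 55735 in the controls and 41337, 68610 and 67217 with IL-17A, with overlapping groups (0.11 ± 0.15, adjusted p = 0.79). Muc3 had 14225, 6331 and 15407 in the controls and 12701, 12510 and 14223 with IL-17A, also overlapping. Muc1, a membrane mucin, had 93.5, 18.6 and 125 in the controls and 265, 342 and 339 with IL-17A, without overlap, and its value of 2.03 ± 0.59 was the highest of the list but did not pass (adjusted p = 0.22). Muc16 had 11.8, 24.5 and 25.9 in the controls and 2.08, 6.92 and 8.72 with IL-17A, the lowest value of the list (-2.08 ± 0.48, adjusted p = 0.14). Muc20 had 23.6, 12.7 and 17.6 in the controls and 21.9, 25.7 and 31.0 with IL-17A, with overlapping groups.

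Of 26 goblet cell genes 0 rose and 0 fell, and the median was 0.07. Fcgbp, a mucus protein, had 33326, 28916 and 28357 in the controls and 40042, 34628 and 37786 with IL-17A (0.36 ± 0.09, adjusted p = 0.15). Spdef, a transcription factor of goblet cell maturation, had 1056, 1213 and 1300 in the controls and 1281, 1452 and 1442 with IL-17A (0.17 ± 0.07, adjusted p = 0.37). Tff3, the goblet trefoil peptide, had 6352, 5878 and 7384 in the controls and 7006, 7127 and 6563 with IL-17A. The groups were apart for Fcgbp alone of these 3. Atoh1, the factor that commits cells to the secretory lineage, had 594, 663 and 584 in the controls and 662, 543 and 537 with IL-17A (-0.02 ± 0.09, adjusted p = 0.94). In whole organoids, fewer cells of a type and less RNA per cell cannot be told apart. Of the 6 tested ion transport genes that the study picked from its sequencing 0 rose and 0 fell (median 0.01), and this list is not independent of the series. Of these, Chp2 had a value of 0.10 ± 0.26, Sult1c2 of 0.18 ± 0.20 and Slc16a10 of -0.37 ± 0.15 (adjusted p from 0.35 to 0.89).

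Of 26 colonocyte genes 1 rose, the brush border protease Mep1b (0.64 ± 0.08, adjusted p = 0.022; list median 0.15). Of 19 enteroendocrine genes 1 rose, Tac1, the precursor of substance P, with normalized counts of 40.3, 35.3 and 33.3 in the controls and of 130, 150 and 131 with IL-17A (1.90 ± 0.19, adjusted p = 0.011; list median 0.16). The groups of Tac1 were far apart. None of 6 tuft cell genes (median 0.10) and none of 11 deep crypt secretory genes (median -0.02) rose or fell. Of 28 solute carriers 1 rose, the zinc importer Slc39a4 (0.65 ± 0.05, adjusted p = 0.0058; median 0.07), and of 19 tight junction genes and 11 matrix protease genes 0 did (median 0.07 for both lists). Of 27 EGF family and repair genes 2 rose (median 0.20), both of the plasminogen system: the tissue plasminogen activator Plat had 131, 114 and 332 in the controls and 489, 1072 and 1219 with IL-17A (1.89 ± 0.11, adjusted p = 0.0017), and the urokinase receptor Plaur had a value of 0.83 ± 0.10 (adjusted p = 0.022).

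Proliferation genes lay slightly lower with IL-17A, without any of them passing the test. All 26 S phase genes had a negative blocked log2 fold change, from -0.48 to -0.18 (median -0.36), and 25 of the 26 were lower in every treated library than in every control of the same sex, against 18.9% of all genes. Of 26 G2/M phase genes 21 were lower in the same way (median -0.25). Mcm5, a subunit of the replicative helicase, had normalized counts of 1948, 2564 and 2478 in the controls and of 1549, 2073 and 1928 with IL-17A (-0.42 ± 0.12, adjusted p = 0.21). Mki67, a marker of cycling cells, had 9520, 10044 and 12993 in the controls and 7798, 11577 and 12014 with IL-17A (-0.23 ± 0.07, adjusted p = 0.21). The groups of both genes overlapped across the sexes. Stem cell and Wnt target genes had a median of -0.24, with 2 of 21 above 0 and none that rose or fell. Lgr5, the stem cell receptor for R-spondin, had 1266, 2881 and 1370 in the controls and 834, 973 and 973 with IL-17A (-0.84 ± 0.31, adjusted p = 0.31).

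Endoplasmic reticulum stress genes lay higher as a list. All 28 had a positive blocked log2 fold change (median 0.34), 26 were higher in every treated library than in every control of the same sex, against 18.4% of all genes, and 7 rose: Hspa5, Pdia6, Calr, Herpud1, Manf, Hyou1 and Asns. Hspa5, the chaperone BiP, had normalized counts of 14320, 12334 and 12197 in the controls and of 19294, 19437 and 20477 with IL-17A (0.62 ± 0.08, adjusted p = 0.032). Hyou1, a partner chaperone, had 3735, 3659 and 3591 in the controls and 5285, 5340 and 5352 with IL-17A (0.54 ± 0.05, adjusted p = 0.0078). The groups were apart for both. Ddit3, which encodes the death-linked factor CHOP, lay at 126, 116 and 153 in the controls and 143, 162 and 181 with IL-17A, with overlapping groups (0.20 ± 0.13, adjusted p = 0.56). Of 25 hypoxia and glycolysis genes 1 rose, the hexokinase Hk2 (0.79 ± 0.07, adjusted p = 0.0063; list median 0.29). Members of one list are measured in the same 6 libraries and are not independent of one another. The shift of the endoplasmic reticulum stress list was not particular to IL-17A. Without a covariate its median was 0.37 with IL-17A and 0.34 with IL-1 at 12 h, against the same controls. The part of these shared controls in it was not tested.

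The 12 h response was then compared with that at 72 h, measured in 3 further IL-17A libraries against 3 libraries labelled as 72 h controls. These controls were not all separate. For Duox2, Nfkbia and Sprr2h, 72 h control library 1 held the same recovered reads as 12 h control library 2. Control library 4 at 72 h likewise held those of 12 h control library 4. The totals were 17030522 against 17030049 reads and 17491815 against 17496229, over unlike sets of genes. The true time of these shared controls is not known. The remaining 72 h control, library 2, was a near copy of 72 h control library 4 (chi-square of 3.30 per gene). Against 72 h control library 1, libraries 2 and 4 had values of 63.14 and 67.63. At 72 h 1038 of 13073 genes were called without a covariate, 656 higher and 382 lower (7.94%; 5.02% higher and 2.92% lower), but this count rests on single libraries: it was 3577 without IL-17A library 2, 218 without control library 1, 86 without IL-17A library 3, 4 without control library 2, and 3 without control library 4 or without IL-17A library 1. All 3 treated libraries at 72 h were XY while 1 control was XY and 2 were XX, so sex and treatment are partly confounded there, and with the sex block 5 genes were called by limma (0.0382%), 1 by edgeR and 801 by DESeq2. Of the 80 genes that passed at 12 h with the block, all 80 were tested at 72 h and 75 had a higher level with IL-17A there. At 72 h 51 passed in the same direction without a covariate, against 6.59% of all genes for rises and 4.18% for falls. The shared control libraries entered both comparisons. This overlap is therefore in part built in, and the shares over all genes are not an independent baseline. With the sex block at both times, the log2 fold change was larger in size at 72 h than at 12 h for 62 of the 80. Without a block at both times it was larger for 63. The share over all genes was not computed. Without a covariate, 2688 of 13073 genes at 72 h had an unadjusted limma p under 0.05 and moved by 1 or more on the log2 scale. At 12 h this held for 140 of 12977.

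A direct test of the difference of the fold changes without a covariate called 5 of 12731 genes, 4 with a larger value at 72 h and 1 with a smaller (0.0393%; 0.0314% larger and 0.00785% smaller). With the sex block 0 were called by limma, with 2524 at an unadjusted p under 0.05, 0 by edgeR and 590 by DESeq2. All these tests counted as separate samples the control libraries shared by both times and the near copies among the 72 h controls. Their SEs and p-values are therefore not those of independent groups. Duox2 had normalized counts of 884, 809 and 861 in the 72 h controls and of 23228, 30365 and 32399 with IL-17A, a log2 fold change larger by 1.66 ± 0.18 than at 12 h (adjusted p = 0.0093). Nfkbia had 949, 992 and 1044 in the 72 h controls and 7353, 5632 and 5138 with IL-17A, larger by 1.92 ± 0.19 (adjusted p = 0.007). The 72 h treated libraries of both genes were above every other library, and with the sex block the difference was 1.59 for Duox2 and no smaller than without it for Nfkbia, at an adjusted p of 0.069 for both.

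The other 3 genes were near 0 at 12 h. Prelp, a matrix proteoglycan, had 79.7, 88.1 and 103 in the 72 h controls and 12.3, 15.1 and 8.82 with IL-17A (difference -2.88 ± 0.35, adjusted p = 0.02). Wsb1, of a ubiquitin ligase complex, differed by 1.36 ± 0.18 (adjusted p = 0.039), and the formin Inf2 differed by 1.53 ± 0.21 (adjusted p = 0.045). With the sex block these differences were -2.65, 1.16 and 1.25 (adjusted p = 0.072 for all 3). Ccl20 had 15.9, 64.4 and 40.6 in the 72 h controls and 60.5, 51.8 and 204 with IL-17A, with overlapping groups; its fold change differed from that at 12 h by -2.68, which did not pass (adjusted p = 0.11). For the S phase list the median went from -0.24 at 12 h to -2.46 at 72 h without a covariate and for the endoplasmic reticulum stress list from 0.37 to 0.14; these medians were not tested. Hspa5 had a log2 fold change of 0.61 at 12 h and 0.14 at 72 h, with a difference of -0.47 (adjusted p = 0.10).

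**Figure D5:**
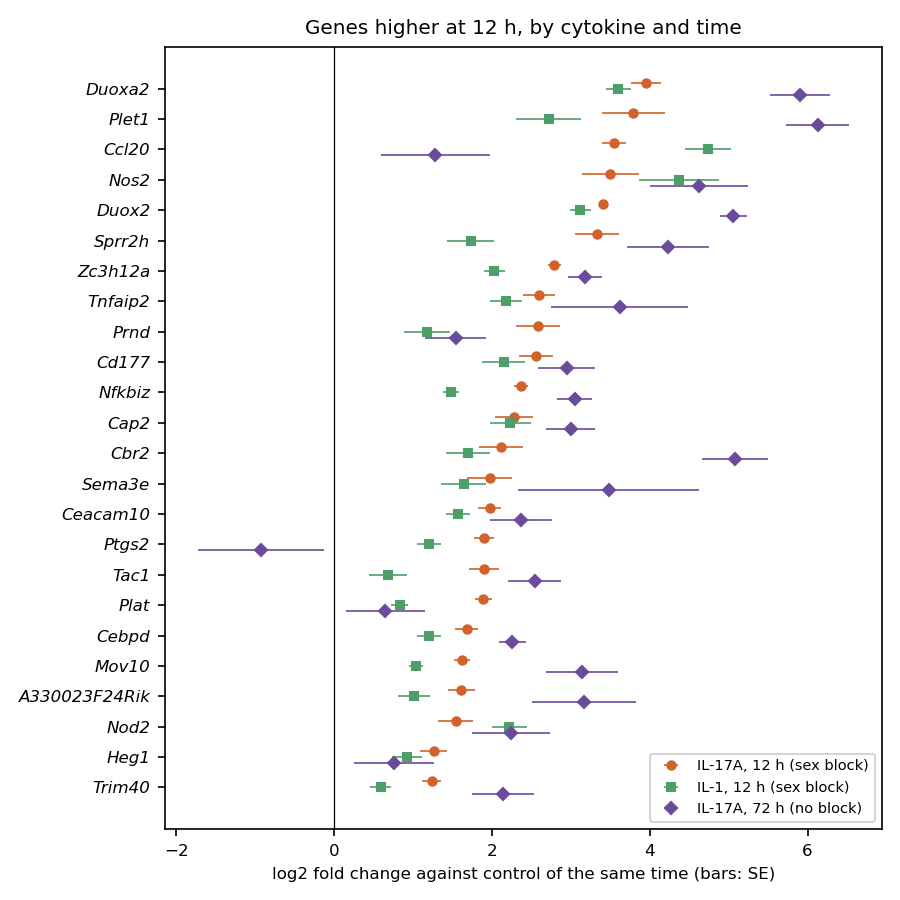
Log2 fold change against the control labelled with the same time (bars, SE) for the 24 genes with the largest rises at 12 h in the sex-block fit. Shown are IL-17A at 12 h (circles, sex block), IL-1 at 12 h (squares, sex block) and IL-17A at 72 h (diamonds, no block). The 12 h comparisons share their controls, and the 72 h comparison shares control libraries with them. Duox2 lay at 3.41 with IL-17A at 12 h and at 5.06 at 72 h, and Sprr2h at 3.33 with IL-17A and at 1.73 with IL-1 at 12 h.

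IL-17A was last compared with IL-1 (IL-1a/1b, 10 nM, 12 h), whose comparison uses the same 3 control libraries. In the sex-block fits against control, 55 of 12913 genes passed with IL-1. Of the 80 that passed with IL-17A, 33 were among these 55. The shared controls build in part of this overlap, and the 2 sets of fold changes are not independent. The treated libraries were therefore set against each other directly. The IL-1 libraries carried the same numbers, 1, 3 and 4, and libraries of one number deviated together (correlations of 0.86, 0.59 and 0.63). The XX libraries of unlike number were about as close (0.59 for both pairs), so that number and sex cannot be told apart by this measure. Without a block 0 of 12962 genes were called by limma or edgeR, with 141 at an unadjusted p under 0.05, 36 of them past the same fold change, and 7 were called by DESeq2. With the number as a block 27 genes were called (0.208%), 10 higher with IL-17A (0.0771%) and 17 lower (0.131%), and 271 differed at any size (2.09%). With sex as the block 6 genes were called (0.0463%) and 19 differed at any size (0.147%). IL-1 libraries 3 and 4 were about as alike (chi-square of 3.03 per gene) as IL-17A libraries 3 and 4 (3.32). Averaging these pairs was not run for this contrast, so its p-values count near copies as separate samples. All values that follow are from the fit by number, with the adjusted p of the sex-block fit given as such.

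Higher with IL-17A in both fits were Sprr2h (difference in log2 of 1.64 ± 0.14, adjusted p = 1.5e-07, and 0.036 with the sex block) and Plat (1.01 ± 0.09, adjusted p = 1.2e-07, and 0.0068 with the sex block). Prnd (1.37 ± 0.15, adjusted p = 4e-06), Tac1 (1.16 ± 0.20, adjusted p = 0.00099) and Plet1 (1.09 ± 0.15, adjusted p = 5.1e-05) were higher in the fit by number and did not pass with the sex block (adjusted p = 0.086, 0.064 and 0.59). Sprr2h had normalized counts of 141, 147 and 167 with IL-1, on the scale of the IL-17A table, against 390, 582 and 464 with IL-17A. Below the size of a call, Nfkbiz was higher by 0.92 (adjusted p = 1.1e-09, and 0.0051 with the sex block), Zc3h12a by 0.84 (6.4e-07, and 0.024) and Pigr by 0.40 (5.7e-05, and 0.26, which did not pass).

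The 17 genes called lower with IL-17A than with IL-1 included the complement component C3, the macrophage growth factor Csf1 and the adhesion molecule Icam1. The chemokines Cxcl2 and Cxcl10 and the gene Abcc8 were also among them. C3 had normalized counts of 2800, 2080 and 1808 with IL-1 against 375, 425 and 510 with IL-17A, a difference of -2.34 ± 0.12 (adjusted p = 1.1e-11). Csf1 had 140, 222 and 197 with IL-1 against 14.6, 33.6 and 36.8 with IL-17A, a difference of -2.75 ± 0.27 (adjusted p = 6.4e-07). Icam1 had 68.8, 85.2 and 90.9 with IL-1 against 6.25, 18.8 and 20.4 with IL-17A, a difference of -2.50 ± 0.30 (adjusted p = 1.1e-05). In these 3 genes every IL-1 library was above every IL-17A library, and all 3 passed with the sex block (adjusted p = 0.027, 0.007 and 0.024). Abcc8 passed in both fits as well (-1.25 ± 0.18, adjusted p = 0.00011, and 0.036 with the sex block).

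Cxcl10 differed by -2.12 ± 0.27 (adjusted p = 3.7e-05) and Cxcl2 by -1.81 ± 0.39 (adjusted p = 0.0098); neither passed with the sex block (adjusted p = 0.16 and 0.20). Smaller differences in the same direction were measured for Ccl20 (-0.99, adjusted p = 0.0024, and 0.41 with the sex block) and Nfkbia (-0.54, adjusted p = 2.8e-06, and 0.024 with the sex block). Duox2, with 10273, 7192 and 6285 normalized counts with IL-1, was higher with IL-17A by 0.39 ± 0.08 (adjusted p = 0.0052, and 0.56 with the sex block). For Cxcl1 the difference was -0.68 (adjusted p = 0.15) and for Nox1 it was -0.05 (adjusted p = 0.74), neither of which passed.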

How the data were processed

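Per the study's methods, the authors checked the reads with FastQC, mapped them uniquely to mm10 with STAR 2.5.3 and normalized gene counts with DESeq2 1.28.1; the libraries were made with the SMARTER mRNA-Seq kit. The program, annotation and strand setting of the gene counting are not given in the sources used here. The deposited tables hold a signal per gene, the authors' counts divided by a size factor per library, and 3 of the 12 tables were used. All values (100%) were whole multiples of a step per column, within 0.1 of a read, so reads were recovered for depth, edgeR and DESeq2. The IL-1 table was rescaled by 1.0483 onto the IL-17A table through the 3 controls they share.

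Groups came from the labels. Values were tested as log2(value + 1), a scale that understates the change of low genes, with limma 3.58.1 (trend) in R 4.3.3 for genes with a mean of at least 10, two-sided, and p was adjusted over all genes tested. Sex was read from Xist and 4 Y-linked genes. The alternatives were a pseudocount of 10 or 0.1, no filter or a mean of at least 50, upper-quartile rescaling, edgeR 4.0.16, DESeq2 1.42.0, a replicate block, a sex block, averaging the most alike pair and leaving out each library. The fits were tested on simulated, independent libraries with known changes. No near copies were simulated, so that check does not cover the effects of single libraries described above. Coordinates are from GENCODE on GRCm38. The IL-17A and IL-1 libraries were blocked by number, as same-numbered samples deviated together (0.86, 0.59 and 0.63); XX libraries of unlike number did too (0.59), so the block also holds sex.

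The comparison, its members and the 27 gene lists (641 genes) were chosen with earlier results of these data known. The named genes were taken from those with the 12 largest changes without overlap, those that passed the test within a list or, for lists with fewer than 2 such genes, had the highest levels, and those the study measures, of which not all are printed; Muc16, Ptgs2, Mov10, Trim40, Apobec1, Cd14, Vdr, Il33, Lbp, Relb, Ddit3, Mcm5, Spdef, Tff3, receptor genes and the genes of the 72 h and IL-1 contrasts were added after their values were seen. In 19 rows the gene name had been turned into a date, and these rows match no list.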

Additional observations from a re-analysis of the deposited data

Results flagged for a closer look

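Between 12 h and 72 h the IL-17A fold change differed for 5 genes in a test of the difference itself, without a covariate in limma. On the log2 scale it was larger at 72 h by 1.66 for Duox2, by 1.92 for Nfkbia, by 1.36 for Wsb1 and by 1.53 for Inf2, and the difference for Prelp was -2.88. With sex as a block the differences were 1.59 for Duox2, -2.65 for Prelp, 1.16 for Wsb1 and 1.25 for Inf2, and no smaller than without it for Nfkbia, and the adjusted p ran from 0.069 to 0.072. The control libraries shared by both times and the near copies among the 72 h controls were counted as separate samples in these tests. The p-values are therefore not those of independent groups. Between IL-17A and IL-1 at 12 h, 27 genes differed with the replicate number as a block. Groups of 3 libraries were too small for a search for outlying samples.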

How the results depend on the processing

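The 5 genes called at 12 h became 15 with a pseudocount of 10, 51 with DESeq2, 4 with edgeR, 140 with an unadjusted p, 2 with IL-17A libraries 3 and 4 averaged, and 2 to 4 with each library left out. With the sex block, chosen after seeing the data, 36 were called, 39 with edgeR, 72 with DESeq2, 41 with a pseudocount of 10, 37 without a filter and 36 with upper-quartile rescaling, and 5 to 127 with each library left out (46 without control 1, 127 without control 2, 9 and 8 without IL-17A libraries 3 and 4). At 72 h the 1038 called became 2309 with DESeq2, 2688 with an unadjusted p, 5, 1 and 801 with the sex block in limma, edgeR and DESeq2, and 3 to 3577 with each library left out. The 5 genes that differed between the times became 29 with edgeR, 1080 with DESeq2, 1986 with an unadjusted p, 0 with the sex block in limma and in edgeR and 590 in DESeq2, and 0 to 2739 with each library left out. For IL-17A against IL-1 the 0 called became 7 with DESeq2, 36 with an unadjusted p, 6, 9 and 13 with the sex block in limma, edgeR and DESeq2, and 0 to 1 with each library left out. The cause of these moves was not tested.

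With the replicate block, 120 genes were called at 12 h, 4 at 72 h, 0 for the difference of the times and 27 for IL-17A against IL-1. At 12 h the groups shared only numbers 1 and 4 (correlations 0.63 and 0.64) and at 72 h only 2 numbers (-0.10 and -0.19), so that the numbers are not known to pair those samples. Values whose sign turned were Ccl6 (-0.31), Il18 (-0.28) and Emp1 (0.31) with the replicate block, and Ccl6 (-0.32), Il18 (-0.27), Muc3 (-0.19), Top2a (-0.23) and Emp1 (0.36) with the sex block without control 2, with adjusted p from 0.00024 to 0.046, against 0.93 to 1 without a covariate. Averaging samples that agreed within sampling noise was not run as planned, since no pair did.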
